A study of Mus musculus with 12 samples.

Results

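Genes of Notch signalling and neurogenesis were followed in bulk RNA-seq of the embryonic mouse spinal cord, namely the receptor *Notch1*, the ligands *Dll1*, *Dll3*, *Jag1* and *Jag2*, the *Hes* genes *Hes1*, *Hes5* and *Hes6*, and the proneural gene *Neurog2*. They were chosen by name, 9 of the 45777 genes in the deposited tables, with earlier results of these data known. All 9 were expressed well above the filter on low values, so none was left out. The study removed *Isl2*, a LIM homeodomain transcription factor of motor neurons (MNs), and asked how brachial and lumbar MNs depend on it. Total RNA came from the ventral cord at E12.5, dissected around the fluorescence of an *Hb9::GFP* transgene that marks MNs. The 12 libraries form 4 groups of 3, brachial *Isl2* +/- (heterozygote), brachial *Isl2* -/- (KO), lumbar heterozygote and lumbar KO. The controls therefore lack 1 copy of *Isl2* themselves, and each library mixes MNs with the other cells of the trimmed tissue. In such bulk RNA, a smaller share of expressing cells and less RNA per cell cannot be told apart.

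Notch receptors are activated by Delta and Jagged ligands on the surface of a neighbouring cell. The receptor is then cut, and its intracellular domain enters the nucleus and joins the DNA-binding protein Rbpj. Together they switch on *Hes1* and *Hes5*, whose products repress proneural genes. *Hes6* acts otherwise, as described below. In the embryonic spinal cord this circuit keeps some progenitors dividing while their neighbours, which express proneural factors and ligands, leave the cell cycle and become neurons.

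The values are TPM, a level per transcript length scaled to 1 total per library, which the authors made with StringTie and which were here rescaled between libraries. The depth behind them ranged from 4.48 to 6.64 Gb of aligned bases, and brachial KO replicate 3 was the shallowest library. *Isl2*, the targeted gene, was at 8.89 ± 0.713 TPM (SD, n = 3) in brachial heterozygotes and 5.91 ± 1.40 in brachial KO libraries, and at 9.36 ± 0.937 and 7.34 ± 0.850 at the lumbar level. Every KO library lay below every heterozygote library of its level, although the limma adjusted p-values were 0.357 for brachial and 0.999 for lumbar cord. In the KO allele a neomycin cassette replaces 3 exons, and the values here cover the whole gene. The tissue markers were present at both levels. The summed level of 8 neuron markers lay between 3823 and 4492 TPM and that of 8 MN markers between 184 and 509 TPM over the 12 libraries. The methods name 3 animals of each genotype for the 12 libraries of both levels, and the labels do not tie libraries to animals. The tests between levels took the libraries as separate, although by the methods the levels share animals.

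*Hes6* was the most abundant of the 9 genes, followed by *Hes5* and *Dll1*, in all 4 groups. Group means of *Hes6* were 95.01 to 151 TPM, those of *Hes5* 72.7 to 117 TPM and those of *Dll1* 40.7 to 61.3 TPM. The ranges of these 3 genes did not overlap in any group, except those of *Hes6* and *Hes5* in brachial KO libraries. The other 6 genes had group means between 15.4 and 28.8 TPM. Among them most neighbours in the order overlapped, and only *Notch1* and *Neurog2* in lumbar heterozygotes did not. The plot of the 9 genes by library shows these values.

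**Figure D1:**
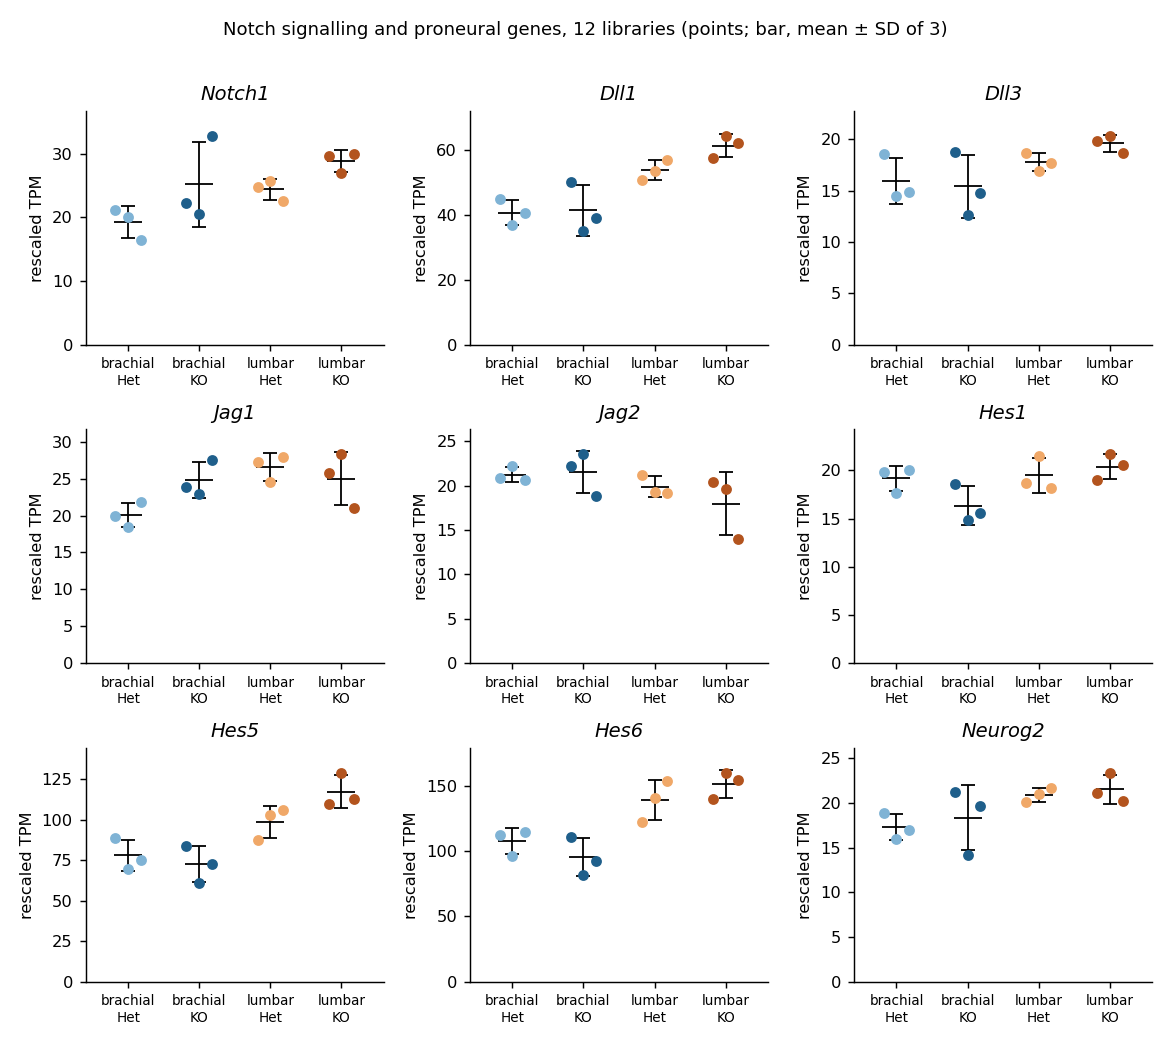
Rescaled TPM (y axis, from 0) of the 9 genes in the brachial and lumbar heterozygote (Het) and KO libraries. Points are single libraries and bars the mean ± SD of 3. *Dll1* and *Hes6* were higher in all 6 lumbar libraries than in any brachial library, while the genotypes of 1 level mostly overlapped.

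*Dll1*, *Hes5* and *Hes6*, 3 of the 9 genes, were higher at the lumbar than at the brachial level (limma, 6 against 6 libraries with genotype as a covariate, adjusted p under 0.05), and none was lower. Of the 16698 genes tested, 8.91% were higher and 9.62% lower by the same rule. The median log2 difference of the 9 genes was 0.26, against 0.01 over all genes tested, and 8 of the 9 values were positive. These values are not independent of each other. Over the 12 libraries *Dll1*, *Hes5* and *Hes6* correlated at 0.951 to 0.972 (Pearson's r of log2 values). In 2 of the 9 genes, *Dll1* and *Hes6*, all lumbar libraries exceeded all brachial ones, as did 3.65% of all genes tested. With TPM as deposited, a scaling that moved the median of all genes to -0.13, *Dll1*, *Hes5* and *Hes6* passed again, while 3.86% of all genes were higher and 13.2% lower. Leaving out single libraries gave between 3 and 5 of the 9 genes, with 5 reached without brachial KO replicate 1 and without brachial KO replicate 3, while 5.64% to 10.4% of all genes were higher. With 3 against 3 libraries of 1 genotype, none of the 9 passed in heterozygotes alone, where 0.969% of all genes were higher, and 2, *Hes5* and *Hes6*, in KO libraries alone, where 0.816% were.

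Between genotypes none of the 9 genes passed an adjusted p of 0.05 at either level. The background was as low, with 0.00596% of 16768 genes called in brachial cord and 0% of 16620 genes in lumbar cord. Nor did any member pass the looser threshold of the study, a log2 fold change beyond 0.5 with an unadjusted p under 0.05. The study stated it for downregulated genes with DESeq2, and here it was used in both directions with limma p-values. At the brachial level 2.21% of all genes were higher and 0.871% lower in KO by that threshold, and at the lumbar level 0.981% were higher and 0.794% lower. With TPM as deposited, 7.15% of all genes were higher and 0.278% lower in brachial KO libraries, and *Notch1* passed at 0.54. With an unadjusted p under 0.05 alone, 1 member was higher in KO at the brachial level (*Jag1*; 6.72% of all genes) and 3 at the lumbar level (*Notch1*, *Dll1* and *Hes5*; 2.61% of all genes). An exact permutation test of 3 against 3 libraries cannot give a p below 0.1. The labels name no pairs, and the replicate numbers of the brachial libraries were taken to pair them from correlations between libraries alone. In each of the 3 pairs KO was lower for *Hes1*, *Hes5* and *Hes6*, as in 23.8% of all genes, and higher for *Notch1* and *Jag1*, as in 21.7%. With these pairs as a block none of the 9 passed (limma adjusted p from 0.359 to 0.945). The plot of estimated differences gives all 3 comparisons side by side.

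**Figure D2:**
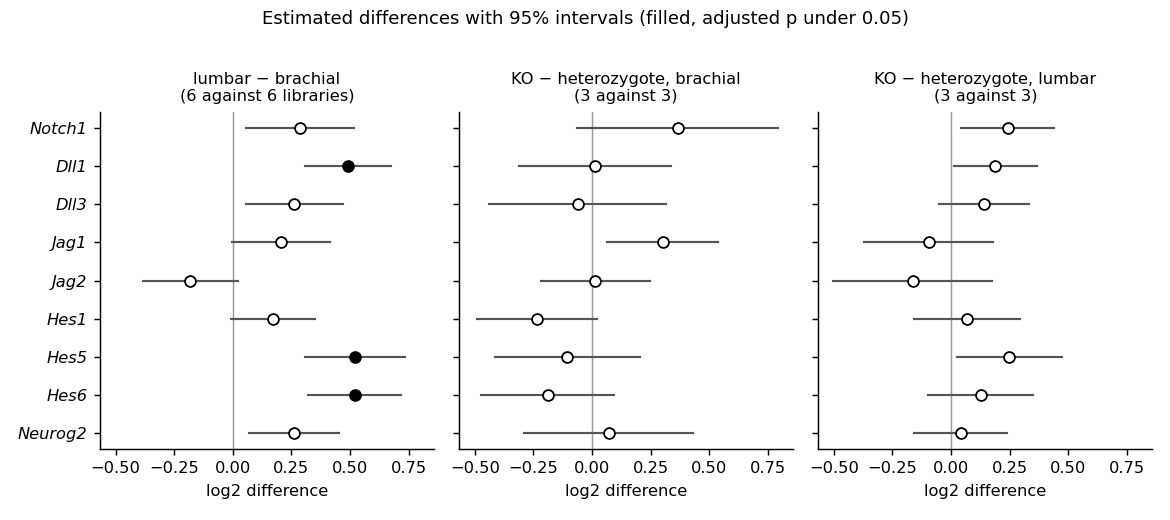
Log2 difference (x axis) of each of the 9 genes for lumbar against brachial, KO against heterozygote at the brachial level, and KO against heterozygote at the lumbar level, with 95% intervals from limma. Filled points have an adjusted p under 0.05 and are the level differences of *Dll1*, *Hes5* and *Hes6*; no genotype difference is filled.

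*Notch1* encodes a Notch receptor of neural progenitors. It was at 21.2, 20.1 and 16.4 TPM in the brachial heterozygote libraries and at 22.3, 20.5 and 32.8 TPM in the brachial KO libraries. At the lumbar level it was at 24.7, 25.8 and 22.6 TPM in heterozygotes and at 29.6, 26.9 and 30.0 TPM in KO libraries. The brachial KO library at 32.8 TPM, replicate 3, was the highest of all 12, and without it every lumbar library exceeded every brachial one. The level difference was 0.29 on the log2 scale (SE 0.11, limma adjusted p = 0.0818). Without brachial KO replicate 3 it was 0.39 with a limma adjusted p of 0.00458. With all libraries and a block of genotype and replicate number it was 0.29 (limma adjusted p = 0.0492). That block pairs same-numbered libraries across levels, a pairing that was not taken to hold here. With TPM as deposited the level difference was 0.15 (limma adjusted p = 0.440). KO against heterozygote differed by 0.37 at the brachial level (SE 0.18, limma adjusted p = 0.378), with overlapping groups, and by 0.16 without that library. At the lumbar level the difference was 0.24 (SE 0.086, exact permutation p = 0.1, limma adjusted p = 0.999), and all 3 KO libraries lay above the heterozygotes.

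*Dll1*, the main Delta ligand of newborn neurons in the cord, was the most abundant ligand. Its brachial values were 44.7, 36.9 and 40.4 TPM in heterozygotes and 50.0, 34.9 and 39.1 TPM in KO libraries. The lumbar values were 50.7, 53.5 and 57.0 TPM in heterozygotes and 57.3, 64.3 and 62.2 TPM in KO libraries. The lowest lumbar library, at 50.7 TPM, was thus just above the highest brachial one, at 50.0 TPM. The level difference was 0.49 (SE 0.085, 1.41-fold), with a limma adjusted p of 0.00237 and an exact permutation p of 0.00216, the smallest that 6 against 6 libraries can give. Within heterozygotes alone it was 0.40 and within KO libraries alone 0.58, with limma adjusted p-values of 0.0521 and 0.0621. KO differed from heterozygote by 0.01 at the brachial level (95% interval -0.31 to 0.34). At the lumbar level it differed by 0.19 (SE 0.077, exact permutation p = 0.1, limma adjusted p = 0.999), and there the genotypes did not overlap.

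*Dll3* encodes a divergent Delta protein that acts within the cell and does not activate receptors on neighbours. It was the least abundant member in 3 of the 4 groups, at 18.6, 14.5 and 14.8 TPM in brachial heterozygotes and 18.7, 12.7 and 14.8 TPM in brachial KO libraries. In lumbar heterozygotes it was at 18.6, 16.9 and 17.7 TPM, and in lumbar KO libraries at 19.8, 20.3 and 18.7 TPM. Replicate 1 of each brachial group reached the lumbar range, and the other 4 brachial libraries lay below it. The level difference of 0.26 (SE 0.096) had a limma adjusted p of 0.0760. It passed without brachial heterozygote replicate 1 (0.32, limma adjusted p = 0.0291) and without brachial KO replicate 1 (0.32, limma adjusted p = 0.0362). The lumbar KO libraries lay just above the lumbar heterozygotes, whose highest library was at 18.64 TPM against 18.65 TPM in the lowest KO library, with a log2 difference of 0.14 (SE 0.083, limma adjusted p = 0.999).

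*Jag1* and *Jag2* encode the Jagged ligands, which in the ventral cord mark other progenitor and neuron populations than *Dll1*. *Jag1* was at 19.9, 18.5 and 21.8 TPM in brachial heterozygotes and at 23.9, 22.9 and 27.5 TPM in brachial KO libraries, so the genotypes did not overlap there. In lumbar heterozygotes it was at 27.3, 24.5 and 27.97 TPM and in lumbar KO libraries at 25.7, 28.3 and 21.1 TPM. The brachial KO difference was 0.30 (SE 0.10, exact permutation p = 0.1, limma adjusted p = 0.357), and the lumbar one was -0.10 (SE 0.12, limma adjusted p = 0.999). These genotype effects differed between levels by -0.40 (SE 0.16, limma adjusted p = 0.812). The level difference of *Jag1* was 0.21 (SE 0.096, limma adjusted p = 0.160), and without lumbar KO replicate 3 it was 0.28 (limma adjusted p = 0.0359). It was 0.40 in heterozygotes alone, 0.0068 in KO libraries alone and 0.066 with TPM as deposited, and passed in none of the 3.

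*Jag2* was the only member with a lower estimate at the lumbar level. It was at 20.9, 22.2 and 20.6 TPM in brachial heterozygotes, 22.2, 23.5 and 18.9 TPM in brachial KO, 21.2, 19.2 and 19.2 TPM in lumbar heterozygotes and 20.4, 19.6 and 13.9 TPM in lumbar KO libraries. The level difference of -0.18 (SE 0.094) did not pass (limma adjusted p = 0.200), and it was -0.10 without lumbar KO replicate 3, the library at 13.9 TPM. KO differed from heterozygote by 0.01 at the brachial level (95% interval -0.22 to 0.25) and by -0.16 at the lumbar level (95% interval -0.50 to 0.18).

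*Hes5* encodes a bHLH repressor that Notch activates directly in neural progenitors. It was at 88.7, 69.8 and 75.3 TPM in brachial heterozygotes and at 83.9, 61.2 and 72.9 TPM in brachial KO libraries. The lumbar values were 87.6, 103 and 106 TPM in heterozygotes and 109.8, 129 and 113 TPM in KO libraries. Only brachial heterozygote replicate 1 and lumbar heterozygote replicate 1, at 88.7 and 87.6 TPM, crossed between the levels. The level difference was 0.52 (SE 0.099, 1.43-fold, limma adjusted p = 0.00376). It was 0.34 within heterozygotes (limma adjusted p = 0.136) and 0.70 within KO libraries. The genotype effect was -0.10 at the brachial level (SE 0.13, limma adjusted p = 0.707) and 0.25 at the lumbar level (SE 0.097, exact permutation p = 0.1, limma adjusted p = 0.999). At the lumbar level the KO libraries all lay above the heterozygotes, while at the brachial level the genotypes overlapped. The difference between these effects was 0.35 (SE 0.18, limma adjusted p = 0.812).

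*Hes6* encodes a relative that opposes Hes1 and is expressed as progenitors become neurons. Its brachial levels were 112, 96.4 and 115 TPM in heterozygotes and 110.6, 81.8 and 92.7 TPM in KO libraries. Its lumbar levels were 122, 141 and 153 TPM in heterozygotes and 139, 159.6 and 154 TPM in KO libraries, all above the highest brachial library. The level difference was 0.52 (SE 0.092, 1.43-fold, limma adjusted p = 0.00267). It was 0.36 within heterozygotes (limma adjusted p = 0.105) and 0.68 within KO libraries. KO differed from heterozygote by -0.19 at the brachial level (95% interval -0.47 to 0.10) and by 0.13 at the lumbar level (95% interval -0.10 to 0.35). The brachial value was -0.30 without KO replicate 1, -0.086 without KO replicate 2 and -0.012 with TPM as deposited. The lumbar value was 0.038 without heterozygote replicate 1 and 0.20 without heterozygote replicate 3.

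*Hes1*, also a direct Notch target in progenitors, had the smallest level difference in size of the 9 genes with all 12 libraries. That of *Jag2* was nearly as small at -0.18, and was -0.10 without lumbar KO replicate 3. *Hes1* was at 19.8, 17.6 and 20.0 TPM in brachial heterozygotes, 18.6, 14.8 and 15.6 TPM in brachial KO, 18.7, 21.5 and 18.2 TPM in lumbar heterozygotes and 19.0, 21.7 and 20.6 TPM in lumbar KO libraries. Brachial KO libraries were mostly the lowest, but replicate 1 overlapped the heterozygotes. The level difference was 0.17 (SE 0.083, limma adjusted p = 0.168). The brachial genotype difference of -0.23 had a 95% interval of -0.49 to 0.02 and a limma adjusted p of 0.369. The lumbar one was 0.07 (95% interval -0.16 to 0.29).

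*Neurog2* encodes the proneural bHLH factor that drives neuron formation in the ventral cord and raises *Dll1*. It was at 18.9, 15.997 and 17.0 TPM in brachial heterozygotes and at 21.2, 14.2 and 19.7 TPM in brachial KO libraries. In lumbar heterozygotes it was at 20.1, 21.0 and 21.6 TPM and in lumbar KO libraries at 21.1, 23.4 and 20.2 TPM. Lumbar libraries were the more even, and brachial KO replicate 1 was the only brachial library within their range. The level difference was 0.26 (SE 0.089, limma adjusted p = 0.0588). It passed without brachial KO replicate 1 (0.31, limma adjusted p = 0.0289) and without brachial KO replicate 3 (0.29, limma adjusted p = 0.0496). KO differed from heterozygote by 0.07 at the brachial level (95% interval -0.29 to 0.43) and by 0.04 at the lumbar level (95% interval -0.16 to 0.24).

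For the difference of the genotype effects between levels, none of the 9 genes passed an adjusted p of 0.05, like 0% of all genes tested. With an unadjusted p under 0.05 only *Jag1* passed, as did 4.42% of all genes. The estimates of *Hes1*, *Hes5* and *Hes6* were 0.30, 0.35 and 0.31 (SE 0.15, 0.18 and 0.17). Other settings of the fit took them as low as 0.14, 0.19 and 0.15. In 4 of the 9 genes, *Notch1*, *Dll1*, *Dll3* and *Hes5*, all lumbar KO libraries exceeded all lumbar heterozygotes, as in 4.42% of all genes at that level. At the brachial level this held for *Jag1* alone, and for 9.67% of all genes.

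The upstream sequences of the 3 genes that were higher at the lumbar level are shown because *Hes5* is a known direct target of Rbpj. Each is the 250 bases before the transcription start, from RefSeq on GRCm38.p6, 5′ to 3′ on the gene's strand. The windows are chr4:154960673-154960922 (+) for *Hes5*, chr17:15376933-15377182 (-) for *Dll1* and chr1:91414039-91414288 (-) for *Hes6*. Capitals mark matches to TGGGAA, the core of the Rbpj site, on either strand. The deposited span of *Hes5* (chr4:154960626-154962372) begins before this start, so its window lies within the span. The same holds for the windows of *Jag2* and *Neurog2*, which are not shown.
Hes5: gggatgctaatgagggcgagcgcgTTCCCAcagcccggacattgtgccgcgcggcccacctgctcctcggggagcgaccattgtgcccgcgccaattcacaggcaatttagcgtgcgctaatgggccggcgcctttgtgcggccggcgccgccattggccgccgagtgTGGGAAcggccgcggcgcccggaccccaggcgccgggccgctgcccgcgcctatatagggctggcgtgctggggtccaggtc
Dll1: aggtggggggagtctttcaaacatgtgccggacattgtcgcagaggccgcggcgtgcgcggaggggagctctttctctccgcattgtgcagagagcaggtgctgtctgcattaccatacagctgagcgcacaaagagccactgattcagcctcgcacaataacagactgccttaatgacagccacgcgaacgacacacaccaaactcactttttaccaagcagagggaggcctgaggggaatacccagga
Hes6: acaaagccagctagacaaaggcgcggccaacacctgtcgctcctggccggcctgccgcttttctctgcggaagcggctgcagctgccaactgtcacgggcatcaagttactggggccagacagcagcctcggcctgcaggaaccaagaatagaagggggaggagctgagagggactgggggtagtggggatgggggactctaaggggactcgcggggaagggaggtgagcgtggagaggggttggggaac
Promoter sequences were matched for 8 of the 9 genes, all but *Hes1*. Of these 8, *Hes5* alone held TGGGAA, in 2 places that begin 226 and 82 bases before the start and lie on opposite strands. Both extend to GTGGGAA, which 5.42% of 32817 mouse windows of this length hold at least once and 0.162% at least 2 times. The shorter core is in 21.6% of the windows. The E box CANNTG, the site of proneural bHLH factors, was found 3 times in the *Dll1* window, 3 times in that of *Hes6*, 2 times in that of *Dll3* and 1 time in each of those of *Jag1* and *Hes5*. It is common, in 66.2% of all windows. The N box CACNAG, a site of Hes repressors, was in the *Notch1* window alone and is in 36.7% of all windows. Matches of such short motifs describe the letters only.

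Other genes of the pathway were described by the same rule. Of 38 other Notch pathway genes, 36 passed the filter, 4 were higher at the lumbar level, 2 were lower and 30 did not pass, with a median log2 difference of 0.04. The shares of all genes tested were 8.91% higher and 9.62% lower. The 4 were *Nrarp*, a Notch target that dampens the pathway (39.3 and 51.7 TPM at the brachial and lumbar levels, 0.41, limma adjusted p = 0.0156), the fringe glycosyltransferase *Mfng* (0.40, limma adjusted p = 0.0419), the ubiquitin ligase *Itch* (0.16, limma adjusted p = 0.0225) and *Hes2* (1.16, limma adjusted p = 0.0499), which averaged 0.382 and 1.004 TPM. *Hes2* averaged below 0.5 TPM in brachial libraries and passed the filter only through the lumbar ones. Its call therefore carries no weight. Lumbar KO replicate 2 was at 2.48 TPM, and no other library was above 0.909 TPM. The 2 lower genes were *Mib2*, a ubiquitin ligase of ligands (-0.26, limma adjusted p = 0.0276), and *Hey2*, a target of Notch in vessels (-0.48, limma adjusted p = 0.0295). None of the other receptors *Notch2*, *Notch3* and *Notch4* passed, nor did any of the 8 genes of receptor cleavage or any of the 8 of the nuclear complex. *Rbpj* itself was at 32.2 and 33.1 TPM, with a difference of 0.05 (SE 0.12). Between genotypes none of these genes passed an adjusted p of 0.05 at either level.

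**Figure D3:**
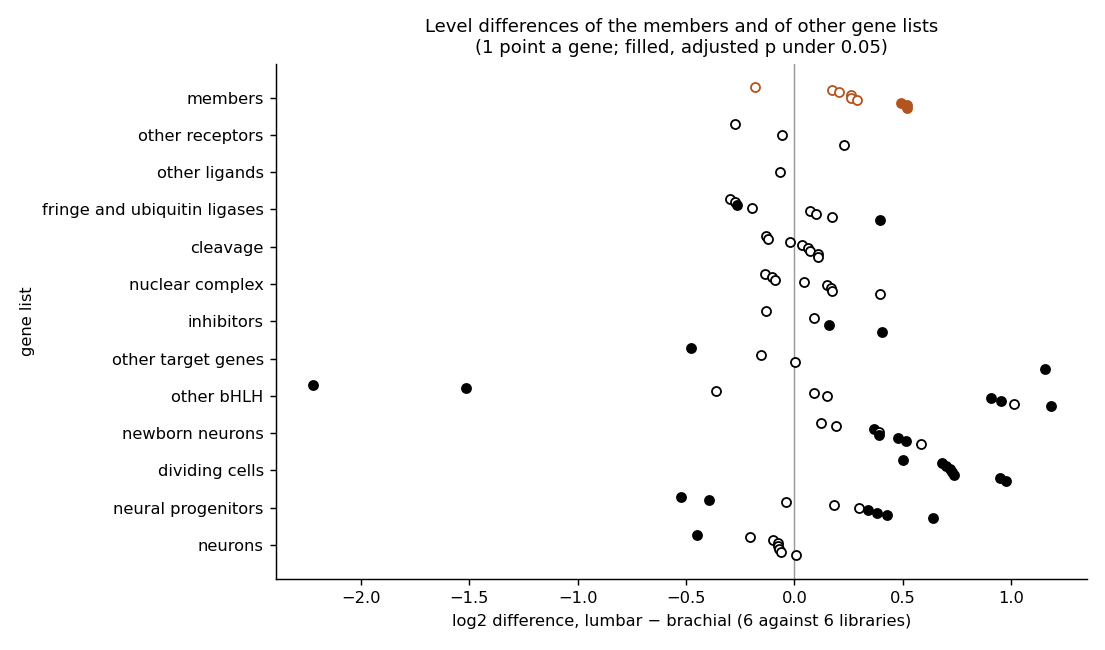
Log2 difference between lumbar and brachial libraries (x axis) of the 9 members (top row) and of other gene lists, 1 point a gene, filled at an adjusted p under 0.05. The 8 genes of dividing cells all lie to the right of zero, while the genes of Notch cleavage and of the nuclear complex lie around it.

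Genes that act after *Neurog2* were also described. Of 8 genes of newborn neurons, 4 were higher at the lumbar level and none was lower, with a median difference of 0.39. These were the transcription factors *Insm1* (0.51, limma adjusted p = 0.00734) and *Myt1* (0.37, limma adjusted p = 0.00324), the cell cycle inhibitor *Cdkn1c* (0.48, limma adjusted p = 0.0141) and the antiproliferative gene *Btg2* (0.39, limma adjusted p = 0.0175). Of 10 other proneural and neurogenic bHLH genes, 9 passed the filter, 3 were higher and 2 lower. *Neurog1* (0.91, limma adjusted p = 0.0351), *Neurog3* (0.95, limma adjusted p = 0.00827) and *Neurod4* (1.18, limma adjusted p = 0.00302) were higher at the lumbar level. *Neurod2* and *Neurod6*, bHLH genes of later neurons, were lower by -1.51 and -2.22 on the log2 scale. These lists were written with earlier results of these data known, and their counts support no direction of the members.

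Genes of dividing cells moved with the level too. All 8 markers were higher in lumbar libraries at an adjusted p under 0.05, with a median difference of 0.72, led by *Top2a* (0.98) and *Ccnb1* (0.95). Their summed level was 239 to 374 TPM in brachial and 389 to 661 TPM in lumbar libraries, with no overlap. Of 10 neural progenitor markers, 9 passed the filter, 4 were higher (*Sox2*, *Sox3*, *Nes* and *Vim*) and 2 lower (*Fabp7* and *Slc1a3*). Their sum, of which *Fabp7* made the most, was 2389 to 3304 TPM in brachial and 2433 to 2881 TPM in lumbar libraries. Of 8 neuron markers, 1 was lower (*Snap25*) and 7 did not pass. The summed level of 8 MN markers was 431 to 509 TPM in brachial and 184 to 320 TPM in lumbar libraries. Of these 8 genes 2 were lower, *Prph* and *Slc5a7*, and 6 did not pass. *Prph*, an intermediate filament gene, averaged 284 TPM at the brachial and 48.4 TPM at the lumbar level, and without it the sum of the other 7 was 185 to 208 TPM in brachial and 150.2 to 244 TPM in lumbar libraries. Between genotypes at the lumbar level, all 8 genes of dividing cells had positive estimates (median 0.34) and none passed an adjusted p of 0.05. All 8 MN markers had negative estimates there (median -0.24), none past an adjusted p of 0.05, and *Prph*, at -0.78, passed the threshold of the study. Of the 8 neuron markers 7 were negative (median -0.037), and none passed. The median of all genes in this comparison was -0.0087. The summed level of dividing cell markers was 389 to 539 TPM in lumbar heterozygotes and 495 to 661 TPM in lumbar KO libraries, and that of MN markers was 244 to 320 TPM and 184 to 264 TPM. In brachial cord the MN sum was 494 to 509 TPM in heterozygotes and 431 to 476 TPM in KO libraries, of which *Prph* averaged 309 and 259 TPM. Of the 8 MN markers 5 were positive there and 3 negative, and of the 8 neuron markers 6 were positive and 2 negative. The brachial dividing cell sums overlapped, at 259 to 366 TPM and 239 to 374 TPM. All 7 erythroid markers had positive estimates in KO at both levels (median 0.48 brachial and 0.54 lumbar), and none passed an adjusted p of 0.05. Their sum was 2065 to 3354 TPM in lumbar heterozygotes and 2733 to 4490 TPM in lumbar KO libraries. The part of these cell populations in the level differences of *Dll1*, *Hes5* and *Hes6* was not tested. Nor was their part in the values of *Notch1*, *Dll1*, *Dll3* and *Hes5* in lumbar KO libraries, or in the brachial genotype differences.

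**Figure D4:**
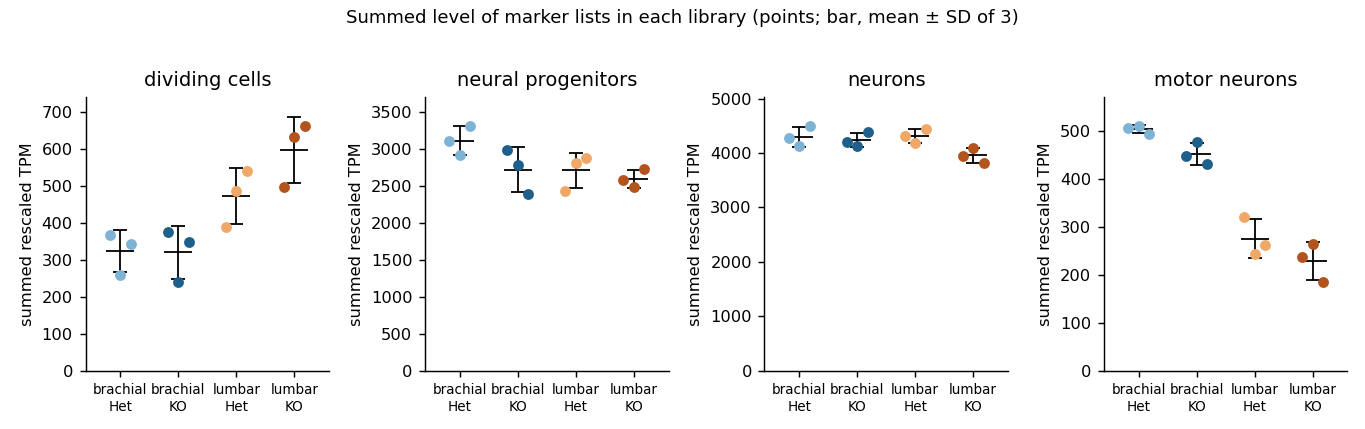
Summed rescaled TPM (y axis, from 0) of markers of dividing cells, neural progenitors, neurons and MNs in the brachial and lumbar heterozygote (Het) and KO libraries. Points are libraries and bars the mean ± SD of 3; the dividing cell sum lies at 239 to 374 TPM in brachial and 389 to 661 TPM in lumbar libraries.

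Ratios between members within a library do not depend on the scaling between libraries. The 3 ratios given here were chosen after the values were seen and were not tested. *Hes5* was 3.76 to 4.681 times the level of *Hes1* in brachial libraries (median 4.30) and 4.684 to 5.95 times in lumbar libraries (median 5.64), so the levels did not overlap, by a narrow margin. The ratio of *Dll1* to *Dll3* was 2.41 to 2.75 (median 2.66) at the brachial and 2.72 to 3.33 (median 3.16) at the lumbar level, where only lumbar heterozygote replicate 1 lay within the brachial range. The ratio of *Jag1* to *Jag2* was 0.835 to 1.46 (median 1.02) at the brachial and 1.26 to 1.51 (median 1.36) at the lumbar level. Brachial KO replicate 3 gave the brachial maximum of 1.46, and without it the levels did not overlap.

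**Figure D5:**
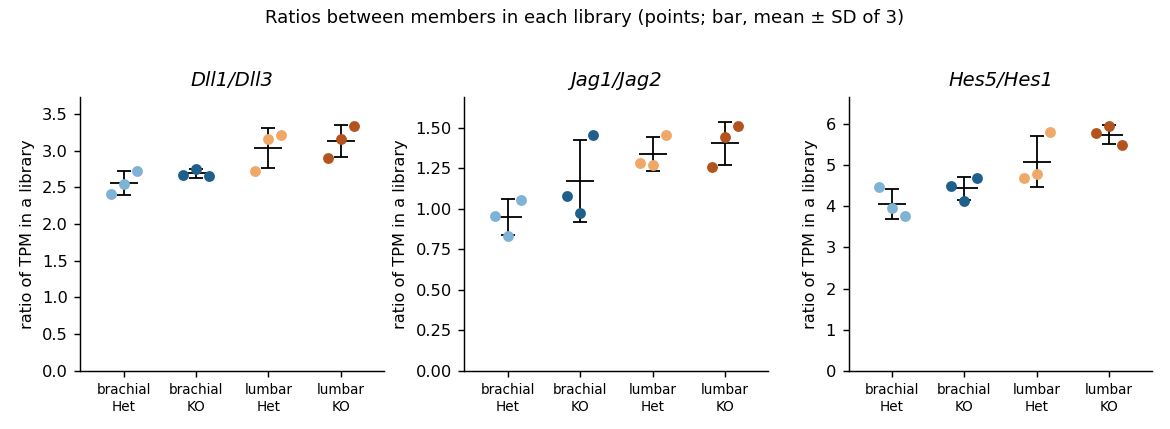
Ratio of TPM (y axis, from 0) of *Dll1* to *Dll3*, *Jag1* to *Jag2* and *Hes5* to *Hes1* within each library, by group (Het, heterozygote). Points are libraries and bars the mean ± SD of 3; the *Hes5* to *Hes1* ratio was 4.25 ± 0.356 (SD, n = 6) in brachial libraries and 5.42 ± 0.551 in lumbar libraries.

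The genes most like each member over the 12 libraries were found by Pearson's r of log2 values among 10088 protein-coding genes with a mean of at least 5 TPM. These values describe libraries that share level, depth and tissue makeup, and carry no test. *Hes5* was most like *Nde1* (r = 0.992), *Btbd17* (0.985) and *Cdca7* (0.981), and *Hes6* most like *Rps27l* (0.989), the histone gene *H2az1* (0.987) and the cell cycle kinase gene *Cdk4* (0.987). For *Dll1* they were *Tead2* (0.987), *Spice1* (0.983) and *H2ac12* (0.983). *Dll3* was nearest to *Pdpn* (0.971), *Rcc2* (0.933) and *Nrarp* (0.930), and *Notch1* to *Chd7* (0.968), *Jam2* (0.965) and *Myo10* (0.963). For *Neurog2* they were *Sox4* (0.955), *Chmp1b* (0.945) and *Bcar3* (0.943). *Jag1* was nearest to *Gmcl1* (0.945), *Slc7a6* (0.924) and *Cdh2* (0.917), *Jag2* to *Fbxw9* (0.944), *Chga* (0.935) and *Srm* (0.931), and *Hes1* to *Rbmx2* (0.948), *Rnf114* (0.940) and *Ankzf1* (0.938).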

How the data were processed

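Total RNA of 12 ventral spinal cord libraries was sequenced after ribosomal RNA removal with a stranded kit. Per the labels and the submitters' processing notes, reads were checked with FastQC 0.11.7, trimmed with Trimmomatic 0.38, mapped to mm10 with HISAT2 2.1.0 and Bowtie2 2.3.4.1, and quantified with StringTie 2.1.3b. The deposited TPM values, made by the authors with StringTie, were used for all results. The deposited FPKM values, from the same run, served as an alternative, and the deposited coverage (mean reads per base) gave the depth. The tables hold no read counts, so edgeR and DESeq2 were not run, and no counting error could be given for a single library.

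Gene identifiers were matched to RefSeq (GRCm38.p6) symbols for 45679 of 45777 identifiers, and 96.2% had identical coordinates. Values of identifiers on several lines were summed. To compare libraries, TPM values were divided by size factors from medians of ratios (0.896 to 1.25), because 5 small RNAs took 23.7% to 38.2% of the TPM of a library. After adding 0.1 and taking log2, genes with a mean of at least 0.5 TPM were fitted with limma 3.58.1 (R 4.3.3, eBayes with a trend, two-sided), with Benjamini-Hochberg adjustment over all genes tested. A fold change on this scale understates that of low genes. Exact permutation tests were two-sided (scipy 1.17.1). The fits were tested on simulated data.

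KO and heterozygote libraries were compared within each level (6 libraries), and the levels and the level by genotype interaction in all 12. The genes named are the 9 members, *Isl2*, genes of the hand-written lists (those past the threshold, of highest level or of smallest p) and the 3 protein-coding genes most like each member. Members, lists and tests were chosen with earlier results of these data known. Lists of 9 further cell types are given in the closing section. Libraries with the same replicate number were compared by correlating their deviations from the group means over 11026 genes. Heterozygote and KO libraries gave 0.218, 0.422 and 0.153 at the brachial level, where the numbers were taken to pair libraries, and 0.176, -0.497 and -0.163 at the lumbar level, where they were not. Libraries with different numbers gave -0.306 to 0.0724 at the brachial level and -0.483 to 0.532 at the lumbar level. Correlations of this size thus also arose without a shared number, and the brachial pairing remains uncertain. The fits were repeated with 0.01 or 1 added, without the filter or with 1 TPM as its limit, on FPKM, on unscaled TPM, after quantile normalization, without the trend, on all 12 libraries together, on 1 genotype alone, with a replicate block, and without each library in turn.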

Additional observations from a re-analysis of the deposited data

Results flagged for a closer look

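Among 18 sets of 6 libraries (9 genes at 2 levels, both genotypes together), 2 held a library far from the others by Dixon's criterion, of which chance gives about 1 in 20. *Notch1* was at 32.77 TPM in brachial KO replicate 3, where its gap to the next library was 0.641 of the whole range. *Jag2* was at 13.94 TPM in lumbar KO replicate 3, with a gap of 0.721 of the range. Brachial KO replicate 3 was also the shallowest library, at 4.48 Gb. Its summed level of erythroid markers was 6244 TPM, against at most 3694 TPM in the other brachial libraries, its progenitor sum of 2389 TPM was the lowest of all 12, and its endothelial sum of 89.0 TPM was the lowest of the brachial libraries. Lumbar KO replicate 3 had the lowest MN and floor plate sums of all 12, at 184 and 166 TPM, and the lowest V2 interneuron sum of the lumbar libraries, at 29.0 TPM. The part of depth or tissue makeup in either value was not tested.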

How the results depend on the processing

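Of the level difference, the count of members past an adjusted p of 0.05 was 3 to 5 when single libraries were left out (5.64% to 10.4% of all genes higher) and 0 with the heterozygote libraries only (0.969%). *Dll1*, *Hes5* and *Hes6* kept a positive estimate under every alternative run, and none of the 9 level differences changed direction. A replicate block of genotype and number gave 4 members, the fourth being *Notch1* (limma adjusted p = 0.0492), with 6.18% of all genes higher and 7.76% lower. The deviations of same-numbered libraries correlated between levels at -0.0794, 0.265 and 0.653 in heterozygotes and at 0.0363, -0.388 and 0.0408 in KO libraries, so the numbers were not taken to pair libraries across levels. Between genotypes no member passed an adjusted p of 0.05 under any alternative run. The replicate block changed no member's call there. With TPM as deposited 1 member passed the threshold of the study at the brachial level, *Notch1* at 0.54, under a scaling that moved the median of all genes to 0.16. Estimates near zero changed direction. With TPM as deposited, brachial *Dll3* and *Hes5* were at 0.11 and 0.071, and with quantile normalization brachial *Jag2* was at -0.012 and the *Neurog2* interaction at 0.0073. Leaving out single libraries gave, at the brachial level, -0.13 to 0.13 for *Dll1*, -0.21 to 0.069 for *Dll3*, -0.052 to 0.11 for *Jag2*, -0.21 to 0.013 for *Hes5* and -0.043 to 0.24 for *Neurog2*. At the lumbar level it gave -0.19 to 0.022 for *Jag1*, -0.26 to 0.0091 for *Jag2* and -0.019 to 0.086 for *Neurog2*, and for the interaction -0.26 to 0.081 for *Notch1* and -0.20 to 0.083 for *Neurog2*. Among other estimates that did not pass, several moved by over 1.5 times in the same direction. Leaving out single libraries gave -0.30 to -0.086 for brachial *Hes6*, 0.038 to 0.20 for lumbar *Hes6* and 0.022 to 0.14 for lumbar *Hes1*. With TPM as deposited, brachial *Hes1* was at -0.058 and brachial *Jag1* at 0.48, and the level differences of *Hes1*, *Jag1*, *Dll3*, *Neurog2*, *Notch1* and *Jag2* were 0.034, 0.066, 0.12, 0.12, 0.15 and -0.32. The level difference of *Jag1* was 0.40 in heterozygotes and 0.0068 in KO libraries, and that of *Hes1* was 0.022 and 0.32. The cause of these changes was not tested. The level differences of the 3 ratios stayed within the spread between libraries in all 12 such repeats, which were added after seeing the data. Fits of edgeR and DESeq2 need counts and were not run.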

Other observations

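Marker lists of cell types that are not described above differed between levels as follows, with counts at a limma adjusted p under 0.05. Genes lower at the lumbar level were 5 of 8 endothelial genes (median log2 difference -0.34), 5 of 6 tested genes of mural cells and mesenchyme (-0.72), and 5 of 6 tested genes of microglia and macrophages (-0.79). Of 6 V2 interneuron genes 3 were higher (0.38), and V2 cells arise from progenitors in which Notch divides sister fates. Among these 3, *Foxn4* averaged 0.491 TPM at the brachial and 1.39 TPM at the lumbar level. It passed the filter only through the lumbar libraries, so its call carries no weight. Of 8 tested genes of ventral progenitor domains 2 were higher and 2 lower (0.11). No floor plate gene (5 tested, 0.26), no erythroid gene (7 tested, -0.12) and no sensory neuron gene (6 tested, 0.07) passed, and 1 of 4 tested genes of Schwann cells and crest was lower (-0.54). That gene, *Erbb3*, averaged 1.56 TPM at the brachial and 0.405 TPM at the lumbar level. It passed the filter only through the brachial libraries, so its call carries no weight. No gene of these 9 lists passed an adjusted p of 0.05 between genotypes at either level.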
